A study of Sus scrofa with 59 samples.

Results

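The 20 longissimus dorsi muscles with the most transcript of the macrophage genes C1QA, CD14 and CD163 were compared with the 20 muscles with the least. They were 40 of the 59 muscles measured, and the 19 muscles between them were left out of the comparison. The muscles were selected on their measured levels of these 3 transcripts. For each of the 3 genes the probe set with the highest mean over 59 arrays was taken, its log2 values were standardised over arrays, and the 3 standardised values were averaged into a marker score.

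Each muscle came from 1 pig of an LD/LW x Duroc cross (so written in the labels) and was hybridised to 1 Affymetrix porcine array. All pigs were 170 days old, and both groups share this cross, muscle, age, array type and normalisation. The groups are therefore muscles sorted by transcript level, not treated and control animals. The labels give no sex, trait value, or array batch per pig, so no label of these could be set beside the groups. For sex, the transcript of a Y-chromosome gene, EIF1AY, is set beside them further below. The p-values set each difference between the groups against the spread among pigs within the groups. Because the groups were cut on transcripts of the same arrays, genes that follow those transcripts tend to differ through the selection itself.

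Resident macrophages of skeletal muscle lie in the connective tissue between fibres, where they clear dead cells and debris. C1QA encodes a chain of C1q, the recognition molecule of the classical complement pathway, and tissue macrophages are its main source. CD163 is the macrophage receptor for haemoglobin bound to haptoglobin. CD14 is a surface protein of monocytes and macrophages that passes bacterial lipopolysaccharide to Toll-like receptor 4. In whole muscle, fewer macrophages and less RNA per macrophage cannot be told apart.

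The marker score ran from 0.127 to 1.68 in the marker-high muscles, with a median of 0.732. In the marker-low muscles it ran from -1.12 to -0.224, with a median of -0.672. The score had no gap at either boundary. The last marker-high muscle, pig 32, scored 0.127 and the first muscle left out, pig 50, scored 0.0836. At the other boundary pig 19, left out, scored -0.198 and pig 44, the first marker-low muscle, scored -0.224.

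The 3 genes that made the score differed by unequal amounts, which are given as a description with no test. CD163 was between 6.61 and 8.40 log2 in the marker-high muscles (median 7.40) and between 5.73 and 7.16 in the marker-low muscles (median 6.71). C1QA was between 6.41 and 7.32 in the marker-high muscles (median 6.85) and between 6.01 and 6.62 in the marker-low muscles (median 6.40). CD14 was between 5.72 and 6.61 in the marker-high muscles (median 6.11) and between 5.69 and 6.21 in the marker-low muscles (median 5.91). The difference in means was thus 0.83 for CD163, 0.46 for C1QA and 0.15 for CD14, and both groups overlapped for each gene.

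**Figure D1:**
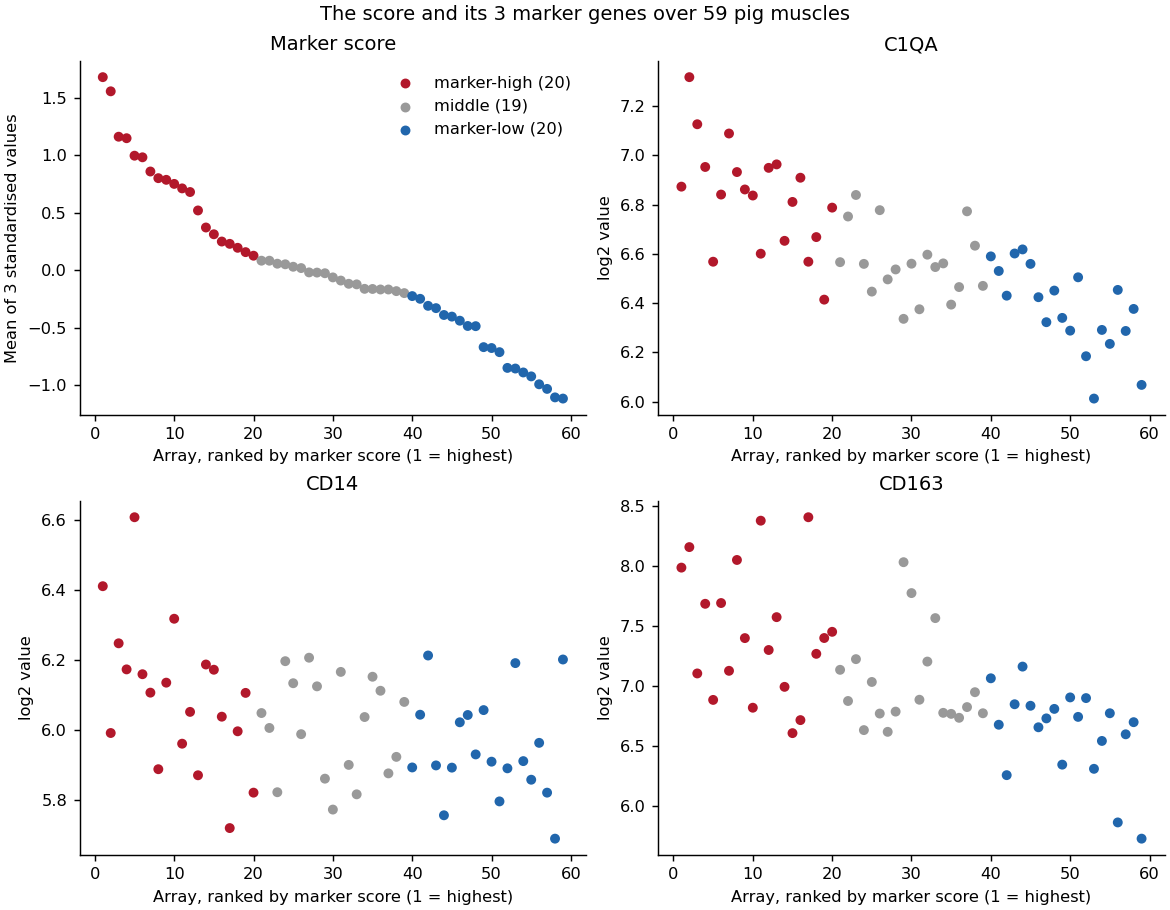
The marker score and the log2 values of C1QA, CD14 and CD163 (vertical axes) are plotted for 59 muscles ranked by score, with 1 point per array and colours for the marker-high, middle and marker-low groups. CD163 and C1QA fall along the ranking with some overlap between groups, while CD14 spans 5.72 to 6.61 in the marker-high and 5.69 to 6.21 in the marker-low muscles.

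The 3 markers did not vary as 1 unit. Over 59 arrays C1QA followed CD163 with a Pearson r of 0.513 (Spearman rho 0.557), whereas CD14 had an r of 0.111 with C1QA (rho 0.084) and of -0.211 with CD163 (rho -0.254). These correlations describe arrays that share 1 normalisation. The CD14 probe set had a mean of 6.02 log2, below the mean of 6.27 log2 that any other probe set needed to be tested. A dimmer CD14 probe set, with a mean of 4.96, had an r of -0.068 with it, of 0.290 with C1QA (rho 0.288) and of 0.459 with CD163 (rho 0.303). Both CD14 probe sets were below the filter, and values given for CD14 are those of the brighter one that entered the score. The genes outside the score were therefore read with each marker alone as well.

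With the 5 probe sets of the 3 markers left out, 11998 probe sets were tested with limma and Benjamini-Hochberg adjustment. In marker-high muscles 73 probe sets (0.608%) were higher and 10 (0.0833%) were lower at an adjusted p under 0.05. Of the 73, 58 carried 1 gene symbol, 1 carried several and 14 carried none. On the level of genes, each read from its brightest tested probe set, 50 of 4926 were higher (1.02%) and 2 were lower (0.0406%). The differences of the 50 genes ran from 0.18 to 1.00 log2 with a median of 0.52, which is 1.14-fold to 2.00-fold with a median of 1.43-fold. The median difference over all 4926 genes was -0.01, with 2226 positive and 2700 negative differences. At an unadjusted limma p under 0.05 were 502 of the 4926 genes. The sign counts and unadjusted counts of the gene lists below stand beside these. No gene separated the groups completely, but for 22 of the 50 the marker-high median lay above every marker-low muscle.

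Macrophage genes outside the score differed in part. Of 16 tested macrophage markers 8 rose in marker-high muscles and none fell, and 15 of the 16 differences were positive, with a median of 0.36 log2. C1QC, another chain of C1q, was between 7.22 and 9.11 in marker-high muscles (median 8.31) and between 6.33 and 8.02 in marker-low muscles (median 7.39). Its difference was 1.00 ± 0.16 log2 (SE, n = 20 per group, limma adjusted p 0.000389), the largest of the 50. In 14 of 20 marker-high muscles C1QC exceeded every marker-low muscle, and 1 of the 20 lay below the marker-low median.

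VSIG4, a complement receptor of resident macrophages, spanned 7.26 to 8.45 (median 7.82) in marker-high and 6.59 to 7.74 (median 7.05) in marker-low muscles. It rose by 0.69 ± 0.11 (limma adjusted p 0.000386), and all 20 marker-high muscles lay above the marker-low median. MRC1, the mannose receptor CD206, spanned 6.92 to 8.34 (median 7.65) against 5.78 to 7.63 (median 7.01) and rose by 0.76 ± 0.14 (limma adjusted p 0.00498). In 10 of 20 marker-high muscles it exceeded every marker-low muscle, and 2 of the 20 lay below the marker-low median.

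TYROBP and FCER1G encode adaptor proteins that carry the signals of activating receptors in myeloid cells. FCER1G ran from 6.49 to 7.44 (median 6.82) against 5.78 to 6.89 (median 6.36), and TYROBP from 6.95 to 9.06 (median 7.95) against 6.71 to 8.35 (median 7.40). FCER1G rose by 0.44 ± 0.08 (limma adjusted p 0.0041) and TYROBP by 0.65 ± 0.14 (limma adjusted p 0.0138), with 4 marker-high muscles above the marker-low maximum for each. LAPTM5, a lysosomal protein of blood-derived cells, rose by 0.76 ± 0.15 (limma adjusted p 0.00821). AIF1, the actin-binding protein also called IBA1, rose by 0.62 ± 0.14 (limma adjusted p 0.0208). The large subunit of the phagocyte NADPH oxidase, listed as GP91-PHOX, rose by 0.53 ± 0.12 (limma adjusted p 0.0248).

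The other 8 macrophage markers did not pass the test. FOLR2 and GPNMB had differences of -0.01 and 0.00 log2, and APOE, CD9, DAB2 and LGALS3 had differences of 0.11, 0.13, 0.20 and 0.21. CD86, a costimulatory ligand for T cells, had a difference of 0.17 ± 0.05 (limma adjusted p 0.0767). PLIN2, which coats lipid droplets in many cell types, had a difference of 0.27.

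**Figure D2:**
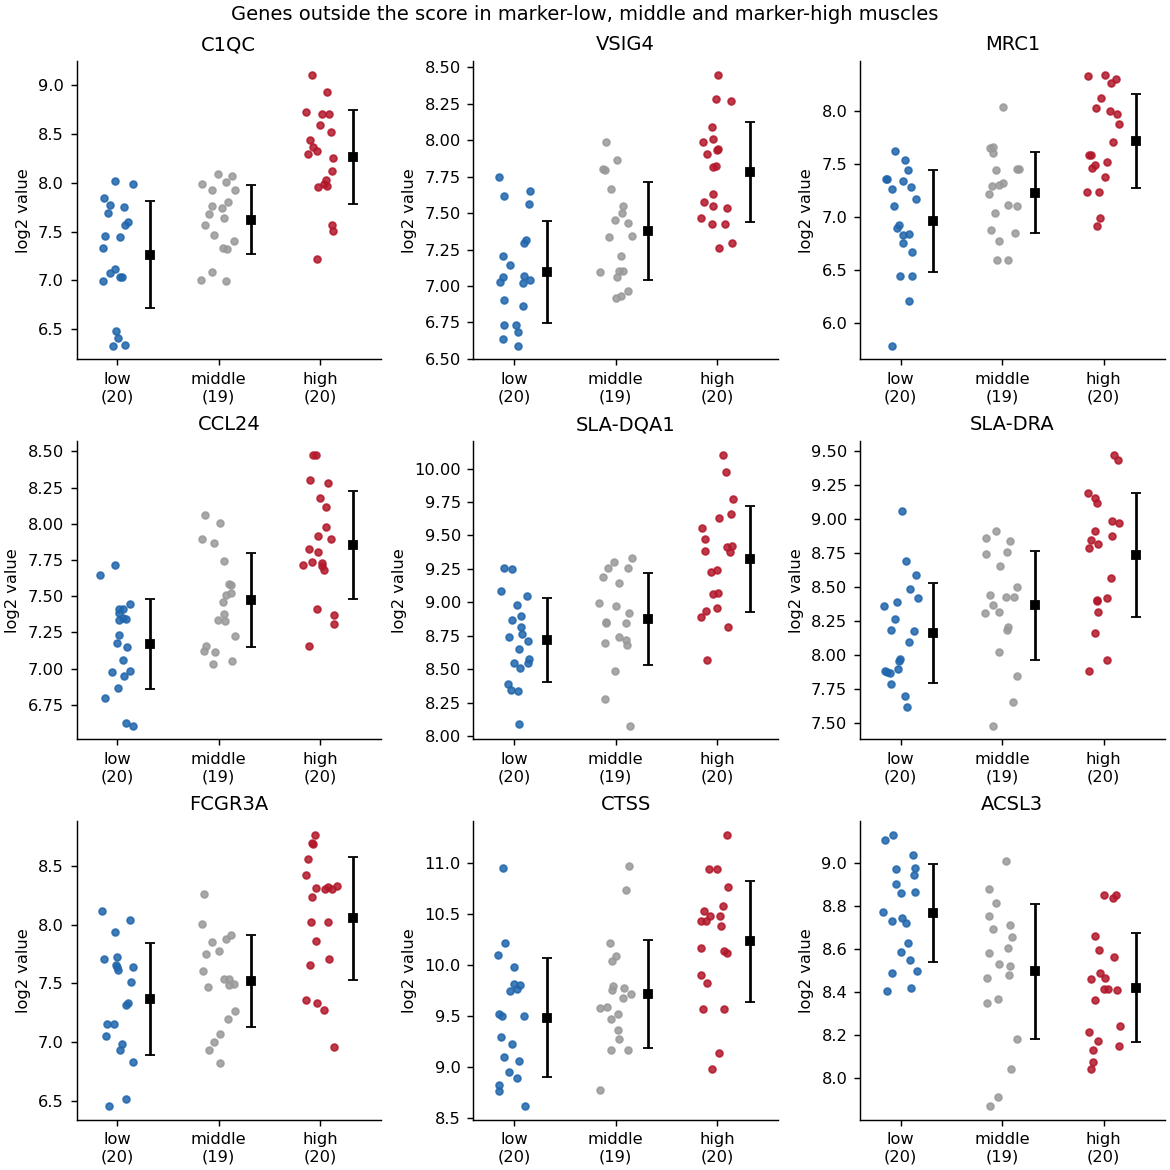
Log2 values of 9 genes outside the score are plotted for 20 marker-low, 19 middle and 20 marker-high muscles, with 1 point per array and a black square and bar for the group mean and SD. C1QC, VSIG4, MRC1, CCL24, SLA-DQA1, SLA-DRA, FCGR3A and CTSS sit higher in the marker-high group and ACSL3 sits lower, with overlapping points in every panel.

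Complement genes beyond C1q rose in part. C1q binds the proteases C1R and C1S, which then cleave C4 and C2, and SERPING1 is the inhibitor of these proteases. Of 11 tested complement genes 5 rose and none fell, with a median of 0.49 log2: C1QC and VSIG4 again, C1S, C1R and SERPING1. C1S was between 9.79 and 11.15 in marker-high muscles (median 10.37) and between 9.14 and 10.69 in marker-low muscles (median 9.73). Its difference was 0.59 ± 0.12 (limma adjusted p 0.00924), and all 20 marker-high muscles lay above the marker-low median. C1R rose by 0.49 ± 0.12 (limma adjusted p 0.0315) and SERPING1 by 0.43 ± 0.10 (limma adjusted p 0.0232), the latter again with all 20 muscles above the marker-low median.

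The later components varied more among muscles of 1 group. C3, the central component of all complement pathways, spanned 7.16 to 9.50 (median 8.63) against 6.51 to 9.02 (median 7.61), and its difference of 0.73 ± 0.22 did not pass (limma adjusted p 0.131). C4A had a difference of 0.59 ± 0.18 (limma adjusted p 0.122). C4BPA, the alpha chain of the C4b-binding protein that limits the pathway, was on no list and was named by the size of its difference. It spanned 9.31 to 10.96 (median 10.30) against 7.99 to 10.31 (median 9.53) and rose by 0.77 ± 0.17 (limma adjusted p 0.0182). The regulators CD46, CLU, CFD and CD59 had differences of 0.39, 0.38, 0.15 and 0.00 that did not pass.

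Receptors for the constant part of antibodies rose with them. Of 13 tested genes of Fc receptors and phagocytosis 5 rose and none fell, all 13 differences were positive, and the median was 0.16 log2. FCGR3A, the low-affinity IgG receptor CD16, spanned 6.95 to 8.77 (median 8.27) against 6.45 to 8.12 (median 7.42) and rose by 0.69 ± 0.15 (limma adjusted p 0.0185). In 11 of 20 marker-high muscles it exceeded every marker-low muscle, while 4 of the 20 lay below the marker-low median. FCGR2B, the inhibitory IgG receptor, rose by 0.68 ± 0.16 (limma adjusted p 0.0212). CYBA, the partner of GP91-PHOX in the oxidase, rose by 0.38 ± 0.09 (limma adjusted p 0.0268).

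The genes of MHC class II presentation rose almost as a whole list. Class II molecules display peptides from engulfed proteins to helper T cells, and in the pig the locus is named SLA. Of 8 tested genes 7 rose and none fell, and all 8 differences were positive with a median of 0.56 log2. SLA-DQA1 ran from 8.56 to 10.10 in marker-high muscles (median 9.38) and from 8.09 to 9.26 in marker-low muscles (median 8.73). It rose by 0.61 ± 0.11 (limma adjusted p 0.00336), with 11 of 20 marker-high muscles above the marker-low maximum. SLA-DQB1 rose by 0.58 ± 0.13 (limma adjusted p 0.0203), SLA-DRA by 0.57 ± 0.13 and SLA-DRB1 by 0.54 ± 0.12 (both limma adjusted p 0.0185).

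Genes that load and trim class II molecules were among the 7. SLA-DMB, a chain of the peptide exchange factor, spanned 7.50 to 8.81 (median 8.18) against 6.98 to 7.97 (median 7.62) and rose by 0.53 ± 0.10 (limma adjusted p 0.00639). IFI30, which reduces disulphide bonds of proteins to be presented, rose by 0.73 ± 0.12 (limma adjusted p 0.0015). CD74, the invariant chain, rose by 0.41 ± 0.10 (limma adjusted p 0.0311). SLA genes have near-identical copies and many alleles, and a probe set can read several of them or read alleles unequally, so the values of single SLA genes are uncertain.

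MHC class I and interferon genes had wider spreads. Of 11 tested class I genes 1 rose, TAPBP, which bridges empty class I molecules to the peptide transporter, by 0.53 ± 0.13 (limma adjusted p 0.031). The median of the 11 was 0.38 log2. PSMB8, an immunoproteasome subunit, had a difference of 0.78 ± 0.23 and SLA-3 one of 0.46, and neither passed (limma adjusted p 0.115 and 0.122). Of 14 tested interferon-response genes none passed in limma, with a median of 0.21 and 6 of 14 at an unadjusted p under 0.05. CXCL9, a chemokine induced by interferon gamma, ran from 5.13 to 10.91 in marker-high and from 4.98 to 10.35 in marker-low muscles, so its difference of 1.46 ± 0.54 was within the spread (limma adjusted p 0.3). GBP1, an interferon-induced GTPase, had a difference of 1.39 ± 0.48 (limma adjusted p 0.23).

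Of 14 tested chemokines and growth factors of monocytes 1 rose. CCL24, also called eotaxin-2, attracts eosinophils. It was between 7.16 and 8.48 in marker-high muscles (median 7.82) and between 6.60 and 7.71 in marker-low muscles (median 7.20). Its difference was 0.68 ± 0.11 (limma adjusted p 0.000386), and 14 of 20 marker-high muscles exceeded every marker-low muscle. CCL2, the main attractant of monocytes, had a larger difference of 0.82 ± 0.26 with a wider spread and did not pass (limma adjusted p 0.173). CCL4 and CCL5 had differences of 0.34 and 0.38 that did not pass (limma adjusted p 0.0764 and 0.0796).

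Of 22 tested genes of the lysosome and cathepsins 2 rose, 21 of 22 differences were positive and the median was 0.11 log2. CTSS, cathepsin S, which degrades the invariant chain in class II compartments, spanned 8.98 to 11.28 (median 10.41) against 8.61 to 10.95 (median 9.50). It rose by 0.75 ± 0.18 (limma adjusted p 0.031), although 1 marker-high muscle exceeded the marker-low maximum. A second, dimmer CTSS probe set had a difference of 0.56 (limma adjusted p 0.112). GM2A, the activator of ganglioside breakdown, rose by 0.47 ± 0.12 (limma adjusted p 0.0469).

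The pathways in which CD14 and CD163 act had 1 gene past the test between them. Of 7 tested genes of the CD14 and Toll-like receptor pathway 1 rose, IRF8, a transcription factor of the monocyte lineage, by 0.51 ± 0.12 (limma adjusted p 0.0307). LY96, the partner of Toll-like receptor 4, had a difference of 0.30, NFKBIA one of 0.17, IL1B one of 0.06 and IL18 one of -0.38, and none of these passed. Of 11 tested genes of haemoglobin scavenging and iron none passed at adjusted p under 0.05 or at unadjusted p under 0.05, with a median of 0.04. HMOX1, the haem-degrading enzyme, ran from 7.47 to 9.91 against 7.17 to 8.84 and had a difference of 0.29 ± 0.15 (limma adjusted p 0.525). The haem-binding protein HPX and the ferritin chains FTH1 and FTL had differences of 0.10, 0.00 and -0.04.

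**Figure D3:**
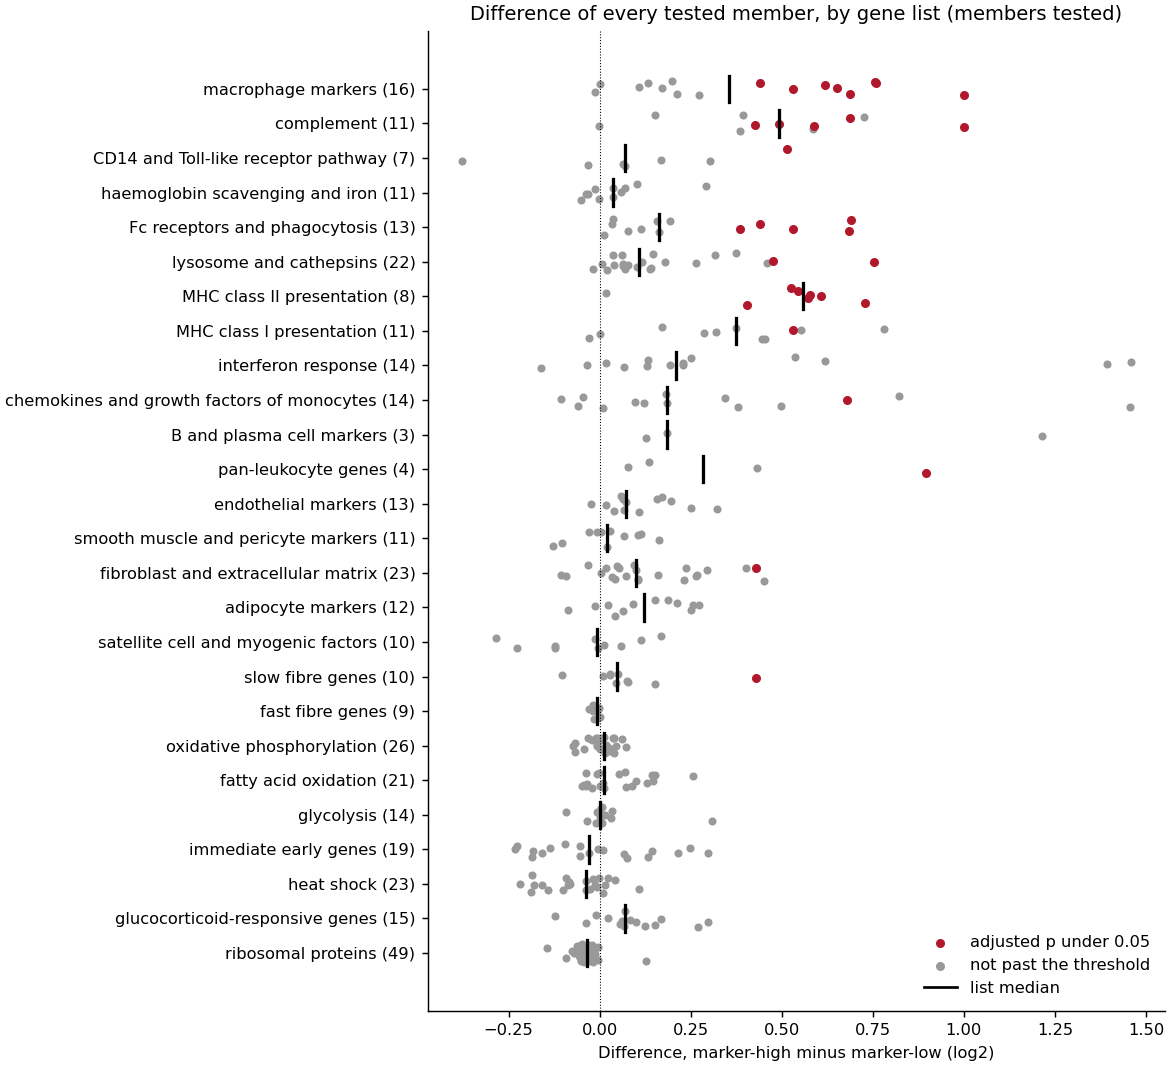
The difference between marker-high and marker-low muscles (horizontal axis, log2) is plotted for each tested member of the gene lists with at least 3 tested members, with red points past the adjusted threshold and a black bar at the list median. Red points gather in the macrophage, complement, Fc receptor and MHC class II rows. The medians of the muscle, mitochondrial and ribosomal rows lie close to 0, and the slow fibre row holds 1 red point.

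Markers of other leukocytes were tested in small numbers. CD53, a tetraspanin of leukocytes in general, was the 1 of 4 tested pan-leukocyte genes that rose: it spanned 5.42 to 8.17 (median 6.93) against 5.02 to 7.22 (median 5.98), a difference of 0.90 ± 0.19 (limma adjusted p 0.0133). SRGN, the granule proteoglycan of blood cells, was on no list and was named by the size of its difference, 0.88 ± 0.21 (limma adjusted p 0.031). Of 3 tested B and plasma cell genes none passed in limma, and 1 had an unadjusted p under 0.05. An immunoglobulin gamma chain (LOC396781) ran from 5.09 to 10.71 against 5.67 to 8.88 and had a difference of 1.21 ± 0.40 (limma adjusted p 0.197).

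No member of the T and NK cell list or of the granulocyte and mast cell list reached the filter. When all 6762 named genes were tested without it, 69 were higher (1.02%) and 2 lower (0.0296%). The 14 T and NK cell genes on the array, with means from 4.39 to 6.04 log2, then all had positive differences, and 2 rose. These were CD3E, a chain of the T cell receptor complex, by 0.29 (limma adjusted p 0.0336) and LCK, its kinase, by 0.44 (limma adjusted p 0.0382). CD8A, CD3G and KLRK1 had differences of 0.76, 0.37 and 0.45 that did not pass (limma adjusted p 0.0638, 0.068 and 0.104). The smallest difference of the 14 was 0.01, for PRF1. The mean level of the 14 genes was between 5.08 and 5.74 in marker-high and between 5.00 and 5.46 in marker-low muscles, so the groups overlapped. Of 8 granulocyte and mast cell genes, with means from 3.92 to 5.80, none passed, and S100A8 had a difference of 0.07. The part of other leukocytes in the higher class II, Fc receptor and pan-leukocyte genes was not tested.

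Without the filter 9 of 25 macrophage genes on the array rose, 6 of 21 complement genes, 7 of 18 genes of Fc receptors and phagocytosis, and 3 of 9 pan-leukocyte genes. Among them was ITGB2, the beta chain of the leukocyte integrins, by 0.61 (limma adjusted p 0.00534). C2, which C1S cleaves, rose by 0.22 (limma adjusted p 0.0411). RAC2, a GTPase of blood cells, rose by 0.23 (limma adjusted p 0.0292) and VAV1, an exchange factor for such GTPases, by 0.42 (limma adjusted p 0.0126). TLR2, a receptor for bacterial lipoproteins, rose by 0.56 (limma adjusted p 0.0146), while TLR4, the receptor that CD14 serves, had a difference of 0.11 (limma adjusted p 0.474).

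Among vascular, connective tissue and fat genes 1 passed the test. Of 13 endothelial and 11 smooth muscle genes none passed in limma, with medians of 0.07 and 0.02 log2 and with 4 and 0 at an unadjusted p under 0.05. Of 23 tested genes of fibroblasts and extracellular matrix 1 rose, S100A4, a calcium-binding protein that leukocytes express as well, by 0.43 ± 0.10 (limma adjusted p 0.019). The mean level of the matrix list was between 9.14 and 9.99 in marker-high and between 9.03 and 10.08 in marker-low muscles, and 20 of its 23 differences were positive with a median of 0.10. Of 12 adipocyte genes none passed, with 1 at an unadjusted p under 0.05, a median of 0.12 and FABP4, the adipocyte fatty acid carrier, at 0.27 (limma adjusted p 0.495). Red cell genes did not pass either, and HBB, the beta chain of haemoglobin, had a difference of -0.09.

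Among genes of the muscle fibre itself 1 passed the test. Of 9 fast fibre, 26 oxidative phosphorylation, 21 fatty acid oxidation, 14 glycolysis, 10 satellite cell, 23 heat shock and 19 immediate early genes none passed in limma with Benjamini-Hochberg adjustment. At an unadjusted p under 0.05 were 3 satellite cell, 2 glycolysis and 1 heat shock gene and none of the others, beside 502 of all 4926 genes. The list medians lay between -0.04 and 0.01. MYH7, the slow myosin heavy chain, had a difference of 0.03 and CKM, muscle creatine kinase, one of 0.01. Both are outside the rule for named genes. The 9 fast fibre genes had means from 12.10 to 14.79 log2, and the highest value on any array was 15.04. Whether saturation of such bright probe sets narrowed their differences was not tested. Of 10 slow fibre genes TPM3, an alpha tropomyosin whose non-muscle isoforms occur in other cells, rose by 0.43 ± 0.10 (limma adjusted p 0.0187). Its 2 dimmer probe sets had differences of 0.30 (limma adjusted p 0.0899) and 0.06 (limma adjusted p 0.797). Of 49 ribosomal protein genes 48 had negative differences with a median of -0.04, and none passed in limma (7 at an unadjusted p under 0.05).

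The 2 genes that fell belonged to no list. ACSL3, which activates long-chain fatty acids for lipid droplets, spanned 8.04 to 8.85 (median 8.41) in marker-high and 8.41 to 9.13 (median 8.76) in marker-low muscles. It fell by 0.35 on the log2 scale (SE 0.07, limma adjusted p 0.0154), with 17 of 20 marker-high muscles below the marker-low median. TTC3, a ubiquitin ligase, fell by 0.26 (SE 0.06, limma adjusted p 0.0185). TTC3 is outside the rule for named genes because its slope in the middle muscles had the opposite sign, and it was named after its values were seen.

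Of the 50 higher genes 29 were on a list and 21 were on none. Among the 21, 3 more leukocyte genes were named after their values were seen. GNLY, granulysin, a protein of cytotoxic lymphocytes, rose by 0.29 ± 0.06 (limma adjusted p 0.00877). PTPRCAP, which binds the phosphatase CD45, rose by 0.22 ± 0.04 (limma adjusted p 0.0102), with all 20 marker-high muscles above the marker-low median. CD209, a lectin of macrophages and dendritic cells, rose by 0.35 (limma adjusted p 0.028).

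Each marker was then set alone against every gene over all 59 arrays, as a slope in log2 per SD of the marker. This comparison was added after the data were seen. With CD163 alone 693 of 4926 genes had a positive slope past the threshold (14.1%) and 346 a negative one (7.02%), and of the 50 higher genes 47 were positive. With C1QA alone 142 genes were positive (2.88%) and 14 negative (0.284%), and of the 50 higher genes 46 were positive. With the CD14 probe set of the score alone 376 genes were positive (7.63%) and 682 negative (13.8%), and of the 50 higher genes 1 was positive and 5 were negative. Since C1QA, CD14 and CD163 chose the groups, these slopes describe how the genes followed each marker and are no independent test of the comparison.

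All 50 higher genes had positive slopes on C1QA and on CD163, and 10 of the 50 had positive slopes on CD14, beside 1899 of all 4926 genes. The 5 of 50 negative past the threshold stand beside the 13.8% of all genes given above. C1QC had slopes of 0.52 on C1QA, 0.44 on CD163 and -0.11 on CD14, and VSIG4 had slopes of 0.31, 0.38 and -0.09. The 5 genes with a negative slope past the threshold on CD14 were CD53 (-0.23), SRGN (-0.27), TPM3 (-0.13), CAP1 (-0.09) and ARPC1B (-0.17). The positive one was JAML, a leukocyte adhesion molecule, at 0.07 (limma adjusted p 0.0429). CAP1, ARPC1B and JAML were named after their values were seen. Of the 16 macrophage genes 13 were positive past the threshold on CD163, 8 on C1QA and none on CD14, where 4 were negative. Of the 14 interferon-response genes 8 were positive past it on C1QA, 2 on CD163 and none on CD14, where 2 were negative. Of the 11 class I genes 7 were positive on C1QA, 4 on CD163 and none on CD14, where 2 were negative.

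**Figure D4:**
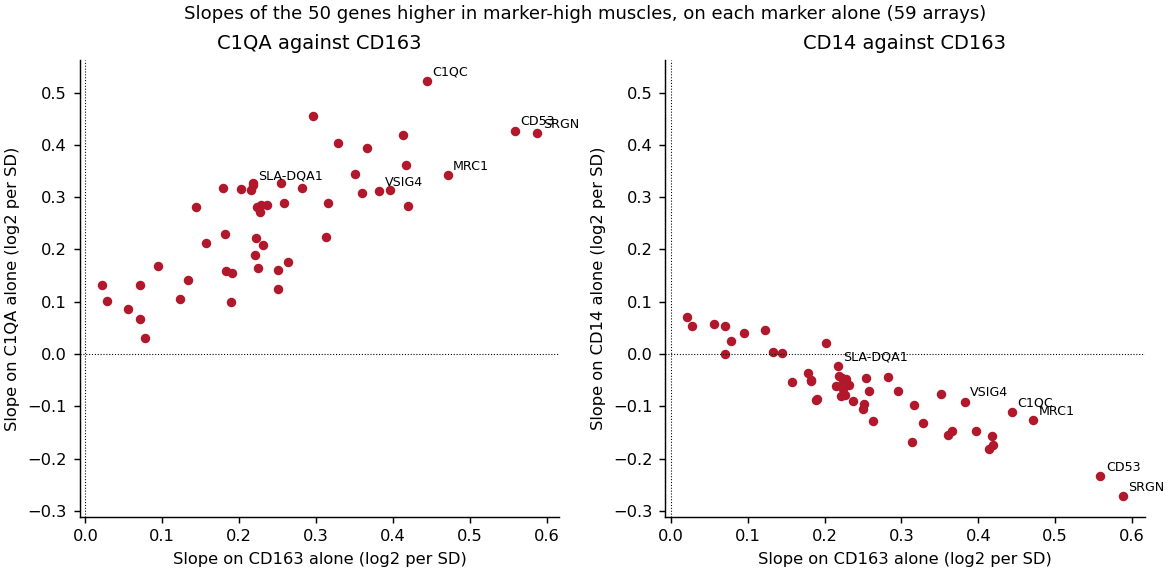
For the 50 genes higher in marker-high muscles, the slope on C1QA alone and the slope on CD14 alone (vertical axes, log2 per SD of the marker, 59 arrays) are plotted against the slope on CD163 alone, with 1 point per gene. All 50 points are above 0 for C1QA, whereas on CD14 the slopes run from -0.27 to 0.07 and 10 of 50 are above 0.

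Choosing the groups without CD14 changed the number of genes. With groups from C1QA and CD163, 118 genes were higher (2.4%) and 1 was lower (0.0203%), and 49 of the 50 higher genes were among the 118. With groups from CD14 and CD163 limma called no gene higher and none of the 50, and 598 of 4926 genes had an unadjusted p under 0.05. With groups from C1QA and CD14, 123 genes were higher and 263 lower, and 17 of the 50 were among the 123. The macrophage list had 8 higher members with C1QA and CD163, 2 with C1QA and CD14, and 0 with CD14 and CD163. With C1QA and CD163, 5 of 11 class I genes and 1 of 14 interferon-response genes were higher.

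The middle 19 muscles, which the comparison did not use, were examined for the same genes against the score. None of 11998 probe sets followed the score there with limma and Benjamini-Hochberg adjustment (lowest adjusted p 0.997), and 438 had an unadjusted p under 0.05. The same held for 0 of 4926 genes (0%), with 173 at an unadjusted p under 0.05. Of the 50 higher genes 31 (62%) had a positive slope in the middle muscles, beside 1182 of 2226 genes (53.1%) with a positive difference between the groups. The sign was the same as between the groups for 4 of 8 class II, 12 of 16 macrophage and 5 of 11 complement genes. Over all tested genes it was the same for 2479 of 4926. The class II list had a median slope of -0.11 in the middle muscles. The score of these muscles spans only -0.198 to 0.0836.

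Values that could differ between the groups for other reasons were set beside the result. The score had a Pearson r of 0.190 with the level of the matrix list and of 0.230 with that of the adipocyte list over 59 arrays. EIF1AY, a gene of the Y chromosome, stands in here for the sex that the labels omit. It was above 7 log2 in 7 of 20 marker-high, 9 of 19 middle and 10 of 20 marker-low muscles. Every value above 7 was at least 9.97, and every other value was at most 3.52. With the EIF1AY level as a covariate 44 of the 50 genes were still called higher. With the matrix list as a covariate 12 genes were higher (0.244%), all among the 50, and the median difference of the 50 was 0.44 in place of 0.52. S100A4, among the 50, is itself on the matrix list, so its own level was part of this covariate (limma adjusted p 0.0985 for S100A4). The 12 were VSIG4, CCL24, C1QC, IFI30, SLA-DQA1, FCER1G, MRC1, SLA-DMB, LAPTM5, GNLY, SH3BGRL3 and PTPRCAP, of which SH3BGRL3 was named after its values were seen. With the adipocyte list as a covariate 19 genes were higher (0.386%), all among the 50, with a median difference of 0.49 over the 50.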

How the data were processed

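Total RNA of 59 pig muscles was hybridised to Affymetrix porcine arrays, 1 per pig. The authors deposited 1 normalised value per probe set and array, made with GCRMA per the submitters' processing notes. The deposited values were read as log2, since they lie between 2.39 and 15.04 with array medians from 6.23 to 6.30. No source used here states the log base. GCRMA compresses differences of dim probe sets. Arrays give no depth, so their number limits the precision. Pairs of arrays correlated between 0.969 and 0.995, and no 2 were identical.

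Of 24123 probe sets, 124 controls were left out. The platform annotation gave 1 symbol for 10099, several for 198 and none for 13826. Of the 1-symbol probe sets, 9989 symbols were updated through the Entrez identifier and 110 kept as given. Probe sets with a mean of at least 6.27 log2, the median of all means, were tested. Fits used limma 3.58.1 in R 4.3.3 (lmFit, eBayes), marker-high minus marker-low, with Benjamini-Hochberg adjustment over all tested probe sets, and were tested on simulated data. Of 50 simulated probe sets per shift, 0 were recovered at 0.5 SD, 9 at 1 SD, 40 at 1.5 SD and 50 at 2 SD. There were 3 false calls, and most shifts of 1 SD or less were missed. A gene is read from its brightest tested probe set.

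The members and the 31 gene lists were chosen with earlier results of these data known. CYBB (listed as GP91-PHOX) and an immunoglobulin gamma chain (LOC396781) were matched through RefSeq synonyms after the data were seen. Named genes were the 12 largest differences in each direction among called genes whose slope in the middle 19 muscles had the same sign, every tested member of the macrophage, complement, CD14 and Toll-like receptor, and haemoglobin and iron lists, and up to 6 members of each other list by smallest p. Alternatives changed the filter, the normalisation, the probe sets averaged, the markers, the group size, the covariates and the variance model, and left out each of 40 arrays. Slopes on each marker alone were added after the data were seen.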

Additional observations from a re-analysis of the deposited data

How the results depend on the processing

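A named gene was counted as reversed where its sign changed and the value passed the threshold in either fit or in both. None of 193 named genes was reversed under the 17 alternatives listed at the outset or the 40 fits that each left out 1 muscle. Signs of genes that passed in neither fit changed for 0 to 32 of them under the 17, most with C1QA and CD14, and for 0 to 4 in the 40 fits. With the CD14 probe set of the score alone over 59 arrays, an alternative chosen after the data were seen, 111 signs changed and 55 genes were reversed. Of the 111, 20 had a slope past the threshold on CD14. Of the 55, 40 were among the 50 higher genes. Their slopes per SD of CD14 were -0.27 for SRGN, -0.23 for CD53, -0.18 for CTSS, -0.17 for GMFG and ARPC1B, -0.16 for LAPTM5, -0.15 for AIF1, FCGR2B and TYROBP, -0.13 for FCGR3A, TPM3 and MRC1, -0.11 for C1QC and TNFRSF1B, -0.0982 for GP91-PHOX, -0.0955 for LOC100522887, -0.0911 for VSIG4, -0.0905 for C1R, -0.0881 for CAP1, -0.0854 for SERPINB1, -0.0809 for CYBA, -0.0781 for SLA-DRB1, -0.0770 for IFI30, -0.0714 for C4BPA, -0.0707 for C1S, -0.0663 for S100A4, -0.0611 for SLA-DRA, -0.0597 for FCER1G, -0.0585 for LOC106504372, -0.0528 for CD74, -0.0509 for SH3BGRL3, -0.0501 for SERPING1, -0.0474 for SLA-DMB, -0.0468 for SAT1, -0.0465 for LOC100624077, -0.0433 for CCL24, -0.0426 for SLA-DQB1, -0.0361 for GM2A, -0.0223 for SLA-DQA1 and -0.0010 for SLC1A5. The other 15, not called between the groups, were PLIN2 (-0.30), CCL2 (-0.29), TIMP1 (-0.25), HK1 (-0.23), LGALS3 (-0.21), CD46 (-0.20), HSPA5 and DAB2 (-0.17), LIPA and CTSZ (-0.16), CD83 and CTSH (-0.15), XBP1 and CD9 (-0.13) and SAMHD1 (-0.11). These 15 passed on CD14. Among the 40 higher genes 5 passed there, namely CD53, SRGN, TPM3, CAP1 and ARPC1B. The others of the 40 did not, and count as reversed because they passed between the groups. For SLC1A5 the limma adjusted p on CD14 was 0.979. The cause of the changed signs was not tested.

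The counts moved most with the choice of markers. The 50 higher and 2 lower genes became 123 and 263 with C1QA and CD14, 118 and 1 with C1QA and CD163, 0 and 1 with CD14 and CD163, 142 and 14 with C1QA alone, 376 and 682 with CD14 alone, and 693 and 346 with CD163 alone. The 8 higher macrophage genes became 2, 8, 0, 8, 0 and 13 in that order. When the probe sets of each marker were averaged 12 genes were lower, and 28 of the 50 were among 37 higher. Higher genes numbered 12 with the matrix list as a covariate (5 macrophage genes) and 19 with the adipocyte list. Lower genes numbered 5 with the heat shock list as a covariate, 5 for the 15 highest against the 15 lowest muscles, and 6 with array weights. With the filter at the 75th percentile of means 13 genes were higher and 0 macrophage genes, since 3 of the 16 remained tested. The causes of the other shifts were not tested.

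Leaving out 1 muscle gave 32 to 64 higher genes, 2 to 5 lower genes and 8 to 9 macrophage genes. The number of higher genes was 32 without pig 16, 32 without pig 49 and 33 without pig 46, and 5 genes were lower without pig 41. Of the 50 higher genes 31 were called in all 40 such fits. In the middle muscles no probe set passed under any alternative run, and 31 higher genes and 1 lower gene kept their sign. Re-centring or repeated quantile normalisation kept the sign of the median of each list with a higher member, and those of glycolysis and fatty acid oxidation (re-centring) and satellite cell genes (quantile), all near 0, turned. With groups from C1QA and CD163 the heat shock median turned from -0.04 to 0.08, the satellite cell median from -0.01 to 0.06 and the immediate early median from -0.03 to 0.03. The medians of oxidative phosphorylation, fatty acid oxidation and glycolysis, all near 0, turned to negative values. No paired analysis was possible because all arrays form 1 labelled group and the pig numbers only name them.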
